A study of Ovis aries with 18 samples.

Results

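The genes described here are 5 that myeloid cells are known for, chosen by name: LYZ, LTF, ITGAM, ICAM1 and PLAUR. Every probe whose accession belonged to one of them was taken, which gave 7 probes of 15008 on the array and 5 genes of the 944 that could be named. LYZ and ITGAM had 2 probes each, and LTF, ICAM1 and PLAUR had 1 each. The label of the set, myeloid granule and adhesion genes, describes what the proteins are known for and was not drawn from the values.

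The blood came from 6 adult female sheep, and the groups differed in what was added to it ex vivo. Each animal gave 3 samples, treated with lipopolysaccharide (LPS), with the control solution, phosphate-buffered saline (PBS), or with monophosphoryl lipid A (MPLA, a detoxified derivative of LPS that also acts on the receptor TLR4). The incubation lasted 90 minutes, and the labels give 1 µg for LPS and 10 µg for MPLA, so the agonist and its amount cannot be told apart. Each sample was hybridised to 1 single-colour Agilent sheep array, giving 18 arrays. No genotype or strain is given, the study's methods put the animals at about 3 years of age, and all 3 treatments share the same animals and the same anticoagulated blood.

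Granulocytes and monocytes carry ready-made antimicrobial proteins in granules and leave the circulation by gripping the vessel wall. Lysozyme, the product of LYZ, cuts the cell wall of bacteria, and lactoferrin, the product of LTF, withholds iron from them. ITGAM is the alpha chain of the integrin Mac-1, which pairs with ITGB2 and binds, among other ligands, ICAM1 on endothelium and on activated leukocytes. PLAUR is the cell-surface receptor for urokinase (PLAU), the protease that turns plasminogen into plasmin. In myeloid cells stimulated through TLR4, ICAM1 and PLAUR are textbook induced genes, whereas many granule proteins are made earlier, during maturation in the marrow.

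Levels are given as log2 of the processed signal over the array's 75th percentile, so that 0 is that percentile and 1 unit is a doubling. A probe counts as detected where the scanner software marked it as well above background. Brightness was uneven, with 75th percentiles of 24.8 to 124 units of processed signal and 23.9% to 45.1% of probes detected on an array. No probe was saturated on any array. Of the genes that mark a response to TLR4, 4 of 4 on the array (TNF, IL1B, IL6 and IL10) were called higher with each agonist by limma. After adjustment the methods' t-test, the study's own paired test per probe, passed 1 of their 5 probes with LPS and 2 with MPLA. IL6 was detected on 0 of 6 PBS arrays and on 6 of 6 with each agonist. It entered the test only through the groups where it was high, so its call adds no support. Markers of neutrophils, 9 symbols in all, had no named probe, nor had those of B cells or platelets, and the endothelial gene KDR was detected on 0 of 18 arrays. Of the 3 monocyte markers with a probe, CD14 and LYZ were detected on all 18 arrays and FCGR1A on 0. Of the 3 T cell markers with a probe, CD3D and CD3E were detected on all 18 arrays and CD4 on 0. KDR, FCGR1A and CD4 are named after their values were seen. In whole blood, fewer cells of a type and less RNA per cell cannot be told apart.

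The members fell into 3 kinds by detection. LYZ was bright on every array, LTF and PLAUR were detected on 5 of 18 arrays each, and ICAM1 and ITGAM were detected on none. The test was run on probes detected in all 6 arrays of at least 1 treatment, and 2 of the 7 member probes passed, both of LYZ, beside 27.5% of all probes and 34.9% of probes with a symbol. Taking probes detected in 4 of 6 arrays instead also kept 2. Another 3 member probes, those of ICAM1 and ITGAM, were detected on no array, beside 45.8% of all probes and 41.7% of probes with a symbol.

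LYZ was the only member that could be tested, and no change was called in any comparison, nor did either probe pass an unadjusted p of 0.05 in limma or in the methods' t-test. With PBS its probe A_70_P051226 read 4.34 on the lowest array, 4.94 at the median and 5.56 on the highest. With LPS the same probe read 4.27 at the lowest, 4.82 at the median and 5.42 at the highest. With MPLA the values were 4.09, 4.89 and 5.69. The 3 ranges overlapped almost entirely. The second LYZ probe, A_70_P051227, read 4.53, 5.08 and 5.67 with PBS, 4.54, 4.92 and 5.44 with LPS, and 4.25, 4.99 and 5.74 with MPLA, again as lowest, median and highest of 6 arrays. The LYZ probes moved together, with r = 0.99 over the 18 arrays, and each was detected on all of them with processed signals of 565 to 4770 and 571 to 5050.

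**Figure D1:**
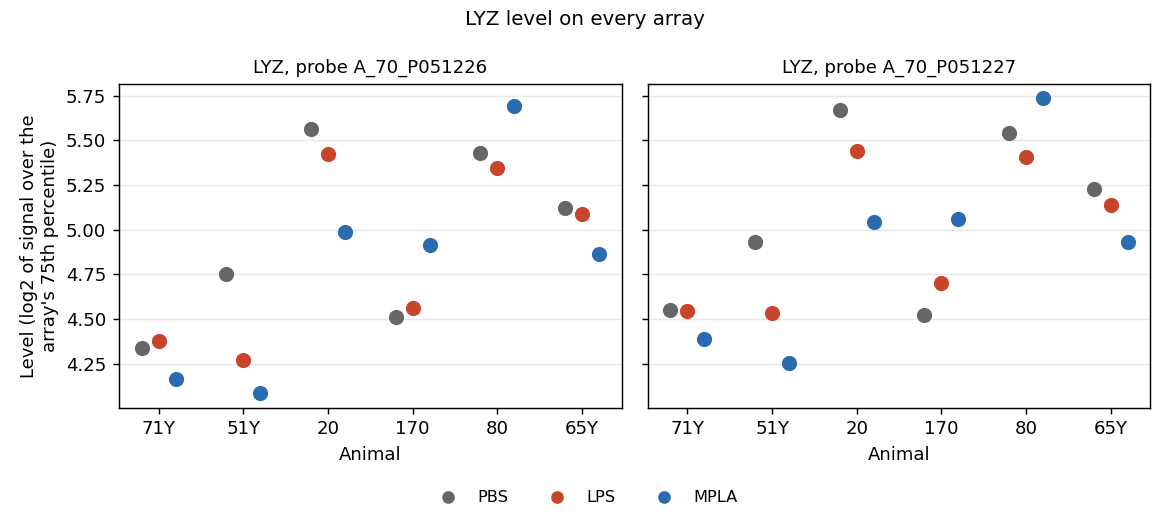
Level of LYZ (log2 of processed signal over the array's 75th percentile) for its 2 probes, by animal, with 1 point per array and the treatment in colour. Animals 20 and 80 read above animals 71Y and 51Y under every treatment.

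Within animals, LYZ with LPS lay 0.11 ± 0.20 below PBS in log2 (SD, n = 6) for probe A_70_P051226, a mean change of -0.11 that was lower in 4 of 6 animals. Its 95% interval ran from -0.43 to 0.22, or 0.740-fold to 1.16-fold, with an adjusted p of 1.00 by limma. For A_70_P051227 the mean change was -0.11 ± 0.20, lower in 5 of 6 animals, with an interval of -0.44 to 0.21. Over all 4122 probes tested, 37 (0.898%) were called for LPS against PBS, and the median change was -0.01. LYZ was not among the calls, and the interval covers both a fall and a rise. With normexp, a model-based background correction applied to the raw spot signal, the LYZ changes were -0.46 and -0.48, below that interval and not called.

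MPLA gave a similar picture for LYZ, with a wider spread between animals. Against PBS the mean change of A_70_P051226 was -0.17 ± 0.43 (SD, n = 6), lower in 4 of 6 animals, with an interval of -0.59 to 0.25 (0.666-fold to 1.19-fold) and an adjusted p of 0.719 by limma. A_70_P051227 gave -0.17 ± 0.47, an interval of -0.61 to 0.26 and an adjusted p of 0.720. With normexp the values were 0.0066 and 0.0047. The animals did not move as one: LYZ fell by 0.66 in animal 51Y and by 0.58 in animal 20 and read 0.40 higher in animal 170 and 0.27 higher in animal 80, on the first probe. Calls for MPLA against PBS numbered 41, or 0.995% of the probes tested, and the median change over all probes tested was -0.09. With each animal left out, the calls ran from 35 to 284.

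MPLA set against LPS, at the amounts used, left LYZ with a mean change of -0.06 ± 0.33 on A_70_P051226, an interval of -0.46 to 0.34 and an adjusted p of 0.949 by limma. The second probe gave -0.06 ± 0.32 with the same interval. The sign turned with normexp, to 0.47 and 0.48, outside those intervals and not called, and without animal 20, to 0.016 and 0.0078. In this comparison 2 probes (0.0485%) were called among all tested, and the median change was -0.08.

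The arrays lay on 3 slides, and the LYZ differences on A_70_P051226 were also taken within each. These are differences between treatment means over the arrays of a slide, and are not paired by animal. For LPS against PBS they were 0.05, -0.06 and -0.31. For MPLA against PBS they were -0.26, -0.12 and -0.62, the last on the slide that held animals 51Y and 20. For MPLA against LPS they were -0.31, -0.06 and -0.31. Each rests on 1 to 3 arrays of a treatment, and for animal 170 the MPLA array was on a different slide from the rest. The MPLA values of the slides that held animal 170 thus set unlike animals against each other. Within animals, MPLA changed LYZ by -0.17 in 71Y, 0.27 in 80 and -0.26 in 65Y against PBS. Against LPS the same animals changed by -0.22, 0.35 and -0.22.

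LYZ varied more between sheep, or the slides that held them, than between treatments. Apart from the MPLA array of animal 170, each animal lay on a single slide, so sheep and slide cannot be told apart. On A_70_P051226 the slide of animals 71Y and 170 read 4.17 to 4.56. The slide of animals 80 and 65Y read 4.86 to 5.69, and that of animals 51Y and 20 read 4.09 to 5.56. The mean over an animal's 3 arrays was 5.49 in animal 80, 5.32 in animal 20, 5.02 in animal 65Y, 4.66 in animal 170, 4.37 in animal 51Y and 4.29 in animal 71Y, on A_70_P051226. The highest animal was 2.29-fold above the lowest. The SD between animal means was 0.497, against an SD of 0.232 among the arrays of an animal. For A_70_P051227 the same quantities were 0.439, 0.242 and 2.09-fold. On A_70_P051226, animals 80 and 20, like animals 51Y and 71Y, differed by less than the SD among the arrays of an animal. The other neighbours in that order differed by more. Such spread between sheep was common on the array: 63.5% of the tested probes had a smaller SD between animals than A_70_P051226 and 53.3% a smaller one than A_70_P051227. The median over tested probes was 0.422 between animals and 0.376 within them. Over the 18 arrays, LYZ gave r = 0.17 with the log2 of the array's 75th percentile and 0.18 with the percent of probes detected.

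Among 373 other named genes, each given by its brightest tested probe, the levels most like those of LYZ over the 18 arrays belonged to IPO5 (r = 0.70), PPP2R5A (r = 0.70) and PRPF39 (r = 0.69). IPO5 carries cargo into the nucleus, PPP2R5A is a regulatory subunit of a protein phosphatase, and PRPF39 is a splicing factor. After each animal's own mean was taken off, these genes gave r = 0.22, 0.05 and 0.00. CD14, the co-receptor for LPS on monocytes, gave r = 0.25 with LYZ by level. Of the other list genes, CTSS gave 0.10, BAC5 0.01, SERPINB2 -0.04 and ITGB2 -0.12. The 18 points are 3 arrays from each of 6 animals, and are not independent.

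Lactoferrin was dim in most animals, and stood out in 1 sheep. LTF (A_70_P030196) was detected on all 3 arrays of animal 51Y, at -0.20 with PBS, -0.34 with LPS and -0.16 with MPLA. It was detected on the PBS and LPS arrays of animal 20 as well, at -2.15 and -2.32, where the lowest detected levels of any array, -2.52 and -2.40, made such a dim spot count. On the other 13 arrays it was not detected and read between -3.75 and -1.26. No other array reached the levels of animal 51Y on this scale. In unscaled signal the PBS and LPS arrays of animal 51Y no longer stood above all others. LTF read 24.2, 25.8 and 57.7 units in animal 51Y, and up to 27.3 units elsewhere, on an array where that was not called above background. The PBS and LPS arrays of animal 51Y were among the dimmer ones, with 75th percentiles of 27.8 and 32.5 units. The part of array brightness in this level was not tested.

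The change of LTF within animals was smaller than its spread. With LPS it averaged -0.02 ± 0.27 against PBS (SD, n = 6) and was lower in 4 of 6 animals. With MPLA it averaged 0.17 ± 0.60 against PBS, and 0.20 ± 0.40 when set against LPS, higher in 5 of 6 animals each time. The LPS mean turned sign without animal 71Y (0.040), 51Y (0.0027) or 20 (0.0076) and was -0.12 without animal 170, and the mean for MPLA against PBS was 0.037 without animal 170 and 0.37 without animal 71Y. In animal 51Y, the one animal where LTF was detected under all treatments, the changes were -0.14, 0.04 and 0.17. The probe did not enter the main test. In the limma fit without the filter on dim probes its adjusted p was 1.00, 0.839 and 0.932.

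**Figure D2:**
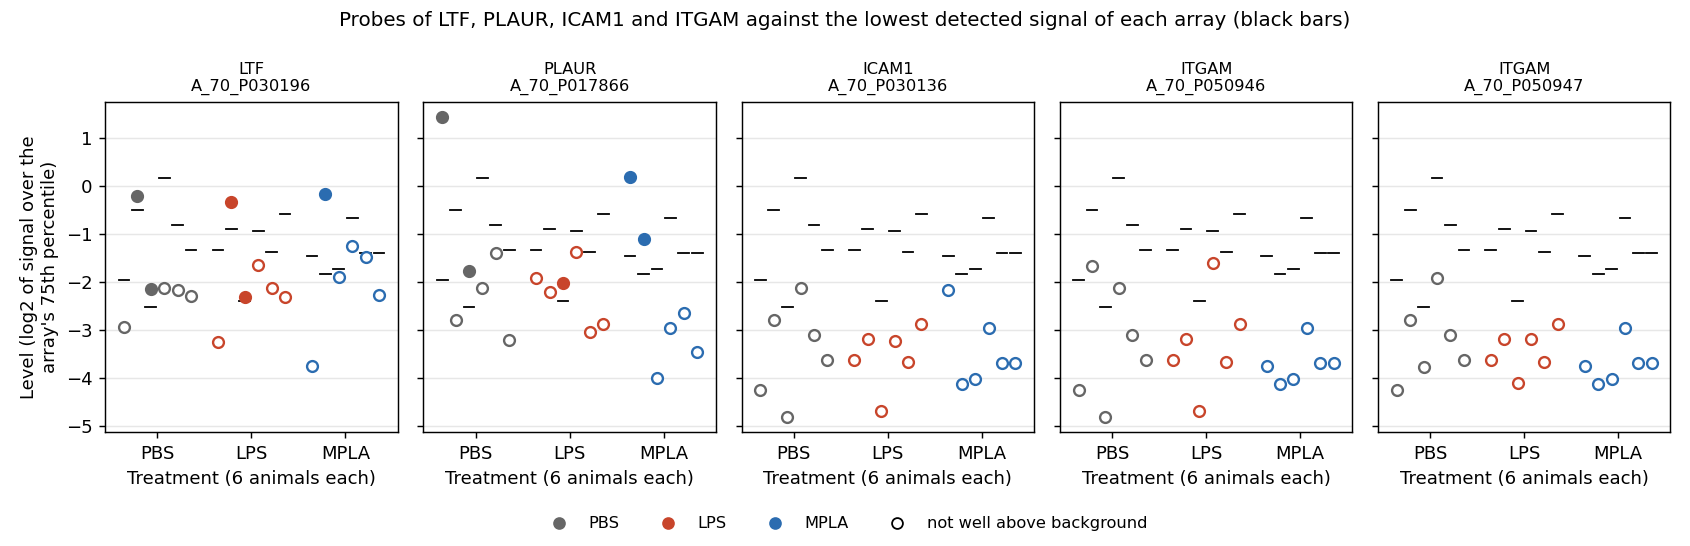
Level of the LTF, PLAUR, ICAM1 and ITGAM probes (log2 of processed signal over the array's 75th percentile) on all 18 arrays, grouped by treatment, with animals 71Y, 51Y, 20, 170, 80 and 65Y in that order from left to right. Filled points are well above background, open points are not, and the black bar is the lowest detected level of that array; only LTF and PLAUR have filled points, 5 each.

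PLAUR, the urokinase receptor, was scattered over single arrays. Its probe A_70_P017866 was detected in animal 71Y with PBS, at 1.45, and with MPLA, at 0.20, but read -1.91 and was not detected with LPS in the same animal. It was detected on the PBS and LPS arrays of animal 20, at -1.77 and -2.01, and on the MPLA array of animal 51Y, at -1.10. These 5 arrays were spread over all 3 treatments and 3 animals. The processed signal was 340 units on the PBS array and 114 on the MPLA array of animal 71Y, against 24.3 on its LPS array, and at most 30.1 units on any array of the other animals. On 4 arrays the probe sat at the array's minimum signal.

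The PLAUR differences within animals varied widely. They averaged -0.59 ± 1.61 for LPS against PBS (SD, n = 6), with 3 animals higher and 3 lower. For MPLA against PBS they averaged -0.69 ± 1.34 and were lower in 5 of 6 animals. For MPLA against LPS they averaged -0.10 ± 1.59. Leaving out each animal moved the last from -0.54 (without animal 71Y) to 0.28 (without animal 20), and MPLA against PBS from -1.17 (without animal 51Y) to -0.38 (without animal 20). The LPS mean rested on animal 71Y, where PLAUR changed by -3.36, and without that animal it was -0.04. In the limma fit without the filter, the adjusted p was 1.00, 0.805 and 0.975. In 4 of the 6 animals the probe was detected with neither PBS nor LPS, so those differences set undetected values against each other.

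The adhesion pair Mac-1 and ICAM1 gave no usable signal from its ITGAM and ICAM1 probes. ICAM1 (A_70_P030136) was detected on 0 of 18 arrays and sat at the array's minimum signal on 16 of them. Of the ITGAM probes, A_70_P050946 sat at that minimum on 16 arrays and A_70_P050947 on 14. Their highest processed signals were 22.2 units for ICAM1 and 15.2 and 7.36 units for the ITGAM probes, while the lowest signal called above background on an array was 13.6 to 36.2 units. No fold change is given for them, and a change below the detection limit would not have been seen. An undetected probe here does not show that the transcript was absent. The probe for ACTB, the abundant cytoskeletal actin, sat at the minimum on all 18 arrays, and both probes for CD4 were detected on none, although other T cell genes were bright. ACTB and CD4 were picked as examples after their values were seen.

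ITGB2, the partner chain of ITGAM, was detected on all 18 arrays. Its brighter probe, A_70_P030172, read 1.58 to 2.71 with PBS, 1.54 to 2.99 with LPS and 1.75 to 2.90 with MPLA. The groups overlapped, and the mean changes were 0.01 with LPS, -0.02 with MPLA and -0.03 for MPLA against LPS, with signs that turned under other scalings. The 95% intervals were -0.38 to 0.41, -0.42 to 0.38 and -0.48 to 0.42. Of 28 symbols on a list of leukocyte adhesion genes, 8 had a probe, 2 were tested (ITGB2 and F11R) and 0 were called in any of the comparisons, also at an unadjusted p under 0.05 in limma and by the methods' t-test. F11R, a junctional adhesion molecule, averaged 0.35 ± 0.38 with LPS and 0.31 ± 0.23 with MPLA against PBS (SD, n = 6), higher in 5 of 6 animals each time, with limma adjusted p of 1.00 and 0.664.

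The one related gene that rose was an inhibitor of the protease that PLAUR binds. SERPINB2, also called plasminogen activator inhibitor 2, read 0.43 at the lowest, 1.22 at the median and 2.30 at the highest with PBS. It read 2.84, 3.60 and 4.37 with LPS and 2.21, 3.11 and 3.66 with MPLA. The LPS values all lay above the PBS values, and those with MPLA overlapped with PBS at 1 end. SERPINB2 rose by 2.32 ± 0.48 with LPS, a 4.98-fold change seen in 6 of 6 animals (95% interval 1.88 to 2.75, limma adjusted p 0.00026). With MPLA it rose by 1.72 ± 0.60, or 3.30-fold, in 6 of 6 animals (interval 1.22 to 2.22, adjusted p 0.0031). MPLA against LPS gave -0.59 with an interval of -1.17 to -0.01 and an adjusted p of 0.841, so a difference between the agonists was not called. The call with LPS was lost under normexp background correction (1.45, limma adjusted p 0.497). The call with MPLA was lost when the slide replaced the animal as the block (1.65, limma adjusted p 0.062). It was also lost in the methods' t-test after adjustment (adjusted p 0.116). Its list, the urokinase system, held 14 symbols, of which 3 had a probe and 1 was tested. Higher calls made up 0.801% of all tested probes with LPS and 0.752% with MPLA. PLAU itself, named after its values were seen, was not tested and was detected on 0 of 18 arrays.

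**Figure D3:**
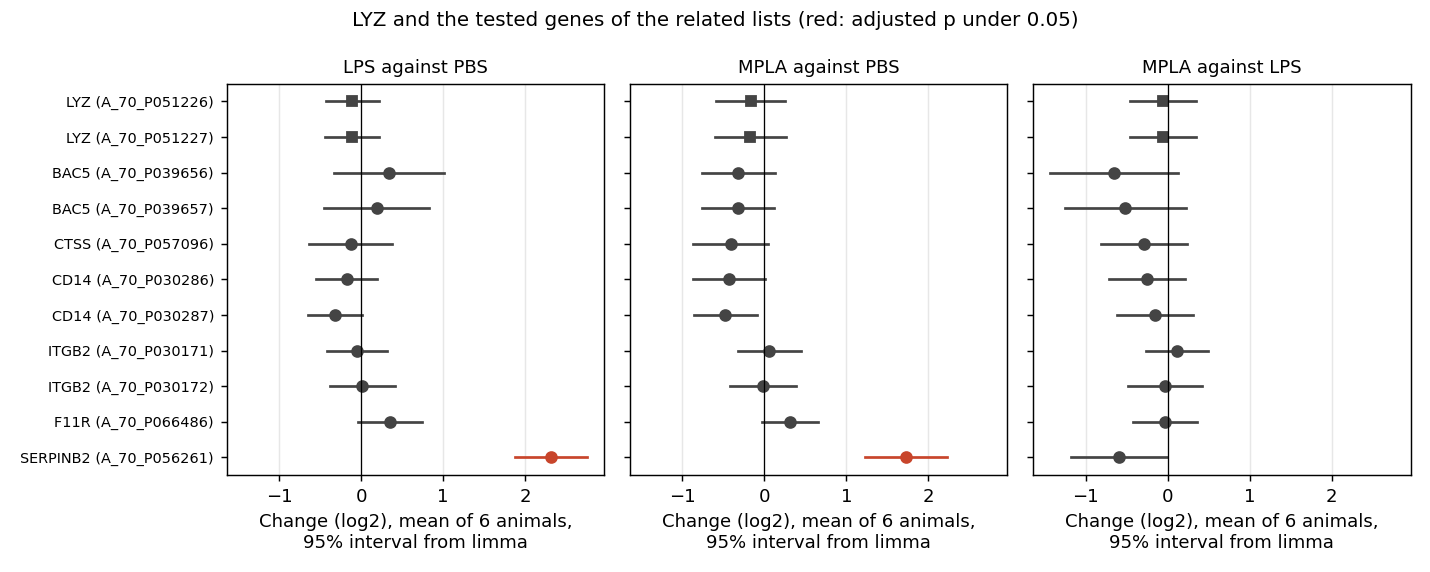
Mean within-animal change (log2) with its 95% interval from limma (n = 6 animals) for LYZ (squares) and for tested genes of the granule, adhesion, urokinase and monocyte lists (circles), in the 3 comparisons. SERPINB2 lies above 0 with both agonists (2.32 and 1.72) and is the only red, called point, while the LYZ probes lie between -0.17 and -0.06.

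Other genes of granules and lysosomes were not called either. Of 42 symbols on a list of granule and secreted myeloid proteins, 4 had a probe, 2 were tested (BAC5 and CTSS) and 0 were called in any comparison, nor at an unadjusted p under 0.05 in limma or by the methods' t-test. BAC5 encodes a cathelicidin, an antimicrobial peptide stored in neutrophil granules, and CTSS the lysosomal protease cathepsin S. The brighter BAC5 probe, A_70_P039656, changed by 0.33 ± 0.90 with LPS and by -0.32 ± 0.50 with MPLA (SD, n = 6), with limma adjusted p of 1.00 and 0.664. Without animal 170, whose PBS and MPLA arrays held BAC5 at the minimum signal, these were 0.037 and -0.21. CTSS changed by -0.13 ± 0.61 and -0.41 ± 0.51, at the same adjusted p. CD14, the other monocyte marker, changed on A_70_P030287 by -0.32 ± 0.22 with LPS and by -0.48 ± 0.35 with MPLA, lower in 5 of 6 animals each time and not called (limma adjusted p 1.00 and 0.648). With MPLA its interval was -0.86 to -0.09 and its unadjusted limma p 0.020, making it the 1 of 4 monocyte probes under 0.05 before adjustment.

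Like LTF, the cathelicidins varied between animals. BAC5 averaged 2.95 in animal 51Y, 2.23 in animal 80, 1.12 in animal 71Y, 0.60 in animal 20, -0.56 in animal 65Y and -1.80 in animal 170, a 26.9-fold span on A_70_P039656. Its SD between animals was 1.76, and 99.4% of the tested probes had a smaller one. On 2 of the 3 arrays of animal 170 the probe sat at the minimum signal, so the lower end of that span is uncertain.

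The other cathelicidins on the array, SC5 and CATHL3, were outside the test, and were looked at after their values were seen. SC5 (A_70_P030426) read 1.75, 1.60 and 0.88 with PBS, LPS and MPLA in animal 51Y and between -3.48 and -0.97 on all other arrays. CATHL3 (A_70_P039281) averaged 1.63 in animal 51Y and 1.28 in animal 80, and between -2.06 and 0.14 in the rest. Animal 51Y was thus the highest of the 6 for LTF, SC5, CATHL3 and BAC5, while for LYZ it was the second lowest, at 4.37. This was not particular to LTF and the cathelicidins. CTSS (4.43), the ITGB2 probes (2.87 and 2.09) and the dimmer F11R probe (-0.34) averaged highest in animal 51Y as well. The brighter F11R probe averaged highest in animal 20, and the CD14 probes in animal 80. In unscaled signal SC5 was also highest on the 3 arrays of animal 51Y, at 93.7, 98.2 and 118 units, against at most 30.9 units elsewhere. For BAC5 and CATHL3 the unscaled values of animals 51Y and 80 overlapped. The red cell gene HBB, the 1 erythroid marker of 5 with a probe, also averaged highest in animal 51Y, at 12.08 against 10.07 to 11.09 in the others. Its part in these levels, like that of the makeup of the blood cells, was not tested.

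**Figure D4:**
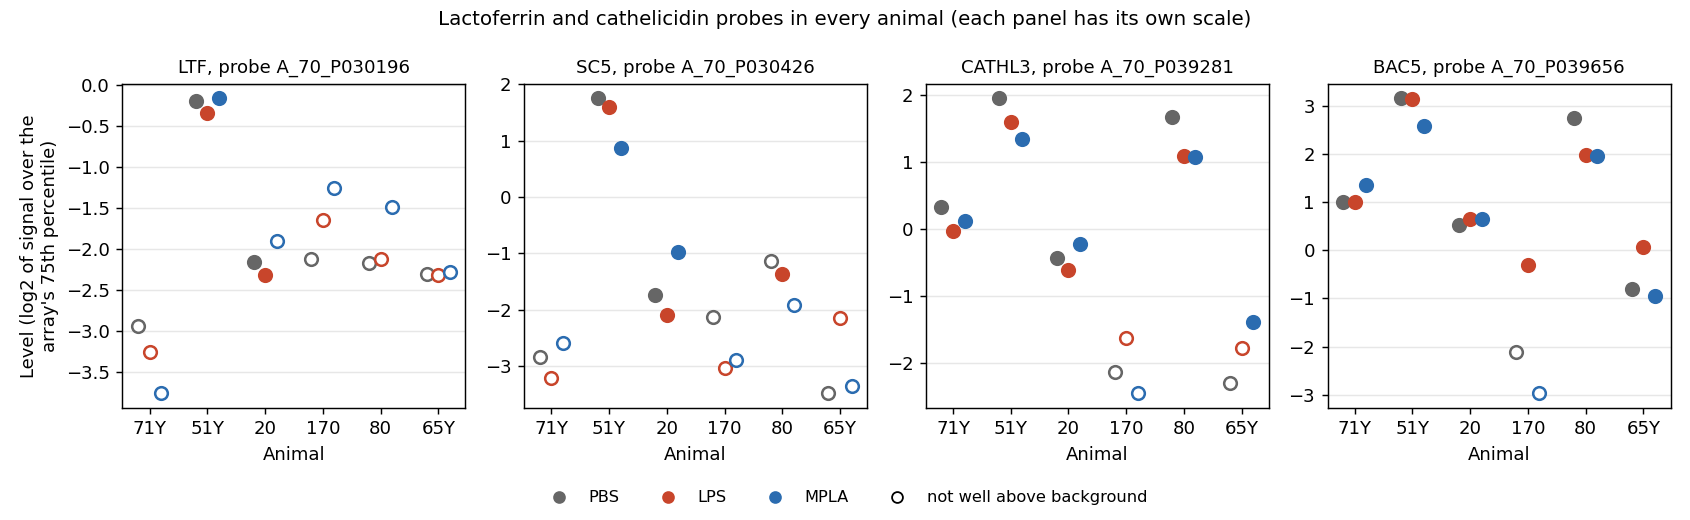
Levels of LTF and of the cathelicidins SC5, CATHL3 and BAC5 (log2 of processed signal over the array's 75th percentile, own scale in each panel) by animal, 1 point per array, with the treatment in colour and open points not well above background. Animal 51Y holds the highest animal mean in all 4 panels, and for LTF and SC5 its 3 points stand above every other array.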

How the data were processed

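Per the labels and methods, blood RNA was amplified and hybridised to 1-colour Agilent arrays. The authors deposited scanner files from Feature Extraction 11.5.1.1, whose processed signal is a background-subtracted intensity in which low spots are raised to a positive minimum. They also deposited a table of ratio values scaled near the 75th percentile, used as an alternative. The kit used for each array is not stated, and reported incubation temperatures differ within the sources.

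Spots of a probe were averaged, divided by the 75th percentile of the 15008 non-control probes of that array, and put on a log2 scale. A floor of 0.01 was never reached. The 4122 probes that were above background on every array of some treatment were tested with limma 3.58.1 (R 4.3.3), animal as a fixed block, on 12 arrays per comparison, two-sided, with calls at an adjusted p (Benjamini-Hochberg) below 0.05. The pairing comes from the animal named in each title, and arrays of an animal deviated together (lowest r 0.13, mean 0.59 over 18 pairs). The number of arrays limits precision.

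Names came from RefSeq accessions (2200 probes) matched to the gene table of ARS-UI_Ramb_v3.0, used for names only: 1265 probes and 944 genes matched. No coordinates or sequences are given, since no genome of a stated build was used here. The members, the gene lists and the tests were chosen with earlier results of these data known. Genes were named if they were members, among the 3 most like LYZ, or tested members of the lists; others are marked as picked later. The code was tested on simulated data. Alternatives covered scaling, background correction, the authors' table, filters, blocks, the test, low values, flagged spots and each animal left out.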

Additional observations from a re-analysis of the deposited data

Results flagged for a closer look

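Among 78 groups of 6 values (levels per treatment and within-animal changes), 4 held a value whose gap to its nearest neighbour exceeded Dixon's limit for 6 samples as a share of the group's range. Chance alone sets about 1 in 20 groups apart where they are independent and normally distributed. These groups share arrays, and some hold values at an array's minimum signal. The number that chance gives here was therefore not determined. LYZ on A_70_P051226 changed by -0.48 with LPS in animal 51Y, against -0.14 to 0.05 in the others. The LTF level with PBS was -0.20 in animal 51Y and -2.93 to -2.12 in the others. SC5 changed by 1.33 with LPS in animal 65Y, where it was detected on no array, against -0.91 to -0.16 in the others. TNF with PBS read 5.26 in animal 80 and 4.86 to 4.95 in the others.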

How the results depend on the processing

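LYZ was not called under any of 18 alternatives in any comparison, with a lowest adjusted p of 0.638. Its sign held in 100 of 108 recomputed values. Under normexp LPS against PBS gave -0.46 and -0.48 for the LYZ probes. The sign turned under normexp background correction for MPLA against PBS (0.0066 and 0.0047) and for MPLA against LPS (0.47 and 0.48). It turned for MPLA against LPS also with the 75th percentile over detected probes (0.0058 and 0.0066) and without animal 20. Leaving out each animal gave -0.14 to 0.016 and -0.14 to 0.0078 there. For LPS against PBS it gave -0.14 to -0.034 and -0.17 to -0.056, and for MPLA against PBS -0.28 to -0.069 and -0.31 to -0.071. Normexp, with its constant offset, moved the median of all tested probes to -0.17 for LPS against PBS and 0.20 for MPLA against LPS. In the main fit these medians were -0.01 and -0.08. The likeness to LYZ fell to 0.22 for IPO5, 0.050 for PPP2R5A and -0.0031 for PRPF39 on deviations from each animal's mean.

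Calls for LPS against PBS fell from 37 to 2 with normexp. By the methods' t-test they were 71 at its own threshold, which has no adjustment, and 10 after Benjamini-Hochberg. For MPLA against PBS they went from 41 to 24 with no filter, 26 with slide as the block, and 92 and 14 by the methods' t-test, and ran from 35 to 284 with each animal left out, the highest without animal 20. For MPLA against LPS they went from 2 to 0 with normexp, no filter, no replicate block or slide as the block, to 1 with the filter at 4 of 6 arrays, and to 52 and 1 by the methods' t-test, and ran from 0 to 18 with each animal left out, the highest again without animal 20. At an unadjusted p under 0.05, 190 probes passed in that comparison.

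SERPINB2 kept its sign throughout. Its call with LPS was lost with normexp (1.45, adjusted p 0.497), and its call with MPLA with slide as the block (1.65, adjusted p 0.062) and in the methods' t-test after adjustment (0.116). TNF lost its call with LPS under normexp and, with either agonist, with no filter and in the adjusted t-test. Without the animal pairing, the fit with no replicate block called 29, 29 and 0 probes and left LYZ at the same -0.11, -0.17 and -0.06, with no call for it.

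Uncalled changes near 0 turned sign as follows. With normexp, BAC5 with LPS gave -0.065, ITGB2 -0.17, 0.087 and 0.26 over the 3 comparisons, and CTSS 0.23, F11R 0.23, CD14 0.13 and TNF 0.27 for MPLA against LPS. BAC5 with LPS gave -0.050 with low values floored. For MPLA against PBS, ITGB2 gave 0.057 (quantile), 0.069 (percentile over detected probes) and 0.038 (authors' table). For MPLA against LPS, ITGB2 gave 0.024 (quantile), 0.034 (percentile over detected probes) and 0.0088 (slide as the block), and F11R 0.010 (quantile) and 0.030 (percentile over detected probes). With an animal left out, ITGB2 with LPS ranged from -0.091 to 0.14, with MPLA from -0.091 to 0.12 and between agonists from -0.17 to 0.083. CTSS with LPS ranged from -0.28 to 0.058 and F11R between agonists from -0.14 to 0.032. The cause was not tested for any of these.

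LTF and PLAUR, which were outside the test, were not run with other blocks or tests, and PLAUR changed sign for MPLA against LPS with quantile scaling (0.11), with floored low values (0.17) and without animal 20 (0.28), 170 (0.20) or 65Y (0.0014). LTF with LPS turned sign without animal 71Y (0.040), 51Y (0.0027) or 20 (0.0076). No change is given for ICAM1 and ITGAM, whose probes were detected on no array; with no filter limma called neither. The filter on detection left 5 of the 7 member probes without a test, while it passed 27.5% of all probes and 34.9% of probes with a symbol.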
